A study of Homo sapiens with 6 samples.

Results

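Oxidative phosphorylation is carried by 5 complexes of the inner mitochondrial membrane, and 86 protein-coding genes for their nuclear-encoded subunits were examined among the 28395 NCBI Gene IDs counted in A375 cells. Members were taken by symbol after the Gene IDs had been mapped to RefSeq names: NDUFA, NDUFB, NDUFC, NDUFS and NDUFV genes for complex I (37 genes), SDHA to SDHD for complex II (4), UQCR genes and CYC1 for complex III (10), COX4 to COX8 genes for complex IV (17) and ATP5F1, ATP5M and ATP5P genes for complex V (18). The rule uses symbols alone, and 185 pseudogenes and 6 long non-coding RNAs with matching symbols were left out. A375 is an established melanoma line, and its total RNA was sequenced in 3 groups of 2 libraries, all after 72 h. The first group received DMSO, the vehicle, at 0.01%. The second received 1 µM palbociclib, called PD991 in the titles, an inhibitor of the cell cycle kinases CDK4 and CDK6. The third received 500 nM GSK3326595, called CTX in the titles, an inhibitor of the arginine methyltransferase PRMT5. All values come from 1 cell line, and both inhibitor comparisons use the same DMSO libraries.

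Electrons from NADH enter the chain at complex I and those from succinate at complex II, pass through ubiquinone to complex III, then through cytochrome c to complex IV, where oxygen is reduced. Proton pumping by complexes I, III and IV drives complex V, the ATP synthase. Apart from complex II, each complex also holds subunits encoded by mitochondrial DNA, so protein subunits of nuclear and mitochondrial origin are joined during assembly. The nuclear factors NRF1, GABP (an ETS factor with its DNA-binding subunit from GABPA) and YY1 and the coactivator PGC-1α (gene PPARGC1A) are known regulators of these nuclear genes.

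Promoters of 5 members are shown as examples picked from the called members, and they do not stand for the others. COX6A1 and NDUFB7 rose with both inhibitors, NDUFA13 and COX6B1 rose with palbociclib, and UQCRC1 fell with GSK3326595. Each run is the 250 bases before the RefSeq start (GRCh38.p14), written 5′ to 3′ along the gene's strand. COX6A1 is chr12:120437863-120438112 (plus strand), NDUFB7 chr19:14572067-14572316 (minus), NDUFA13 chr19:19515975-19516224 (plus), COX6B1 chr19:35648073-35648322 (plus) and UQCRC1 chr3:48609647-48609896 (minus). Capitals mark matches, on either strand, to the motif of NRF1 (GCGCANGCG), ETS factors (CCGGAAG), YY1 (AAGATGGC), SP factors (GGGCGG), E2F factors (TTCCCGC) or the E-box (CACGTG).
COX6A1: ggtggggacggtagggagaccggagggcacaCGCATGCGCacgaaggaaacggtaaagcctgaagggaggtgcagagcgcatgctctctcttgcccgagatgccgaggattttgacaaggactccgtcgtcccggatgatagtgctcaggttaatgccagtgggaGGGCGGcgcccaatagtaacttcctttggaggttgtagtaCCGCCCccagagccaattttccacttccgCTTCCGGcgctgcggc
NDUFB7: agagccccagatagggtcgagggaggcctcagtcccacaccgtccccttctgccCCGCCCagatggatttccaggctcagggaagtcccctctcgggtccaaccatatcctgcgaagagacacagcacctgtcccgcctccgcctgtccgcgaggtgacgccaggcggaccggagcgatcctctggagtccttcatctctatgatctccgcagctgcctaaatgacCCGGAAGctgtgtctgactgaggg
NDUFA13: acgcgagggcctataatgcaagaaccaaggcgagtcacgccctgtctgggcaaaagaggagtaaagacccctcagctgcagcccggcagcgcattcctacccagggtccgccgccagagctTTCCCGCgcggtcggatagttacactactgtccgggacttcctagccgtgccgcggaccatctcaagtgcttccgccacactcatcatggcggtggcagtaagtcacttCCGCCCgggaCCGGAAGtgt
COX6B1: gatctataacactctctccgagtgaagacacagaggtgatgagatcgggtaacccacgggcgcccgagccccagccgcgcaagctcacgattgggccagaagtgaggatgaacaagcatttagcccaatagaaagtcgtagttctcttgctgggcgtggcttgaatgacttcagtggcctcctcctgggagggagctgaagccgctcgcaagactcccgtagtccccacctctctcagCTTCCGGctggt
UQCRC1: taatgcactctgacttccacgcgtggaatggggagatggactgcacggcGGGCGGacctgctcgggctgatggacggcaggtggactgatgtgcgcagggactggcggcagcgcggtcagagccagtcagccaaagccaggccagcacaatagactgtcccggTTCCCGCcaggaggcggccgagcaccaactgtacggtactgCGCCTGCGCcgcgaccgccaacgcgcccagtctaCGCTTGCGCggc
The COX6A1 run held 1 NRF1, 1 ETS and 2 SP matches, and the NDUFB7 run 1 ETS and 1 SP match. NDUFA13 held 1 match each for ETS, SP and E2F, and COX6B1 1 ETS match. UQCRC1 held 2 NRF1 matches, 1 SP and 1 E2F match. In these runs 0 bases were shared by 2 matches, and a match is a description of the window, not a bound site.

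Over the 300-base windows (250 before and 50 after the start), 69 of the 86 members had an entry in the RefSeq table, which gives 1 start per gene. The NRF1 motif lay in 22 of the 69 members (31.9%), against 13.5% of 12466 genes tested here that have a window and 8.05% of all 27305 windows. The ETS motif lay in 20 members (29%), against 17.5% and 10.7%, and the YY1 motif in 11 (15.9%), against 4.83% and 3.03%. The SP motif was no more frequent in members (60.9%) than in the genes tested (66.4%; all windows 44.6%). E2F matches were in 18.8% of members (genes tested 9.62%, all windows 6.56%) and E-boxes in 10.1% (9.55% and 7.43%). By complex, NRF1 matches lay in 8 of 32 windows of complex I, 2 of 3 of complex II, 4 of 7 of complex III, 2 of 14 of complex IV and 6 of 13 of complex V. Complex IV windows held no YY1 match, whereas 6 of 32 complex I windows did. Of the 17 members that rose with palbociclib and have a window, 10 held the ETS motif, 3 the NRF1 motif and 0 the YY1 motif. Among those without an ETS match were NDUFA2, NDUFB2 and COX7A2. The single RefSeq start need not be the one used in these cells, and for COX7A2 it may be an upstream alternative start. NDUFB9, NDUFS5, SDHC, UQCRB and COX6C also rose with palbociclib but have no window. The 6 members that rose with GSK3326595 and have a window held the ETS and the NRF1 motif in 3 windows each. Shares among all genes that rose were not computed. These shares were described and not tested.

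The tables held 16589153 to 20842099 counts per library. Levels are given as CPM, counts scaled to a common library size after TMM, a correction for differences in RNA composition. Of the 86 members, 81 passed the filter on low counts and were tested in edgeR's quasi-likelihood model across 16381 genes; calls below are at an adjusted p (Benjamini-Hochberg) under 0.05. Separate culture of the replicates is not stated in the labels; the p-values therefore rest on the scatter of these 6 libraries, and that scatter can be of technical origin. Melanoma markers were in part present: SOX10 (122 to 237 CPM), MITF (57.4 to 87.4 CPM) and PRAME (118 to 152.5 CPM) were measured throughout, PMEL and MLANA stayed between 0.937 and 2.45 CPM, and TYR was at 0 in 5 of 6 libraries. S100B rose with palbociclib (log2 1.66) and MITF with GSK3326595 (0.49). Of 6 blood cell markers, PTPRC reached at most 0.117 CPM; 1 of 6, LYZ, was tested and rose with palbociclib (log2 1.59), which set the summed level of the list at 14.0 to 14.5 CPM against 4.74 to 4.91 in DMSO and 4.6 to 6.76 in GSK3326595. Of 6 epithelial markers, KRT14 rose and KRT8 fell with palbociclib (log2 1.86 and -0.36; summed level 684 to 757 CPM in DMSO, 617 to 697 with palbociclib, 623 to 782 with GSK3326595). Of 6 fibroblast and endothelial markers, COL1A1 and PECAM1 fell with palbociclib (log2 -1.07 and -0.96) and COL1A1 rose with GSK3326595 (1.05); the summed levels were 18.6 to 20.4 CPM in DMSO, 11.1 to 15.0 with palbociclib and 30.2 to 35.3 with GSK3326595. The part of these markers in the subunit results was not tested. In bulk RNA, fewer cells of a type and less RNA per cell cannot be told apart.

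Respiratory subunit mRNAs were mostly somewhat higher after either inhibitor, by about 1.1-fold in summed level, and complex IV had the largest ratios. Summed over all members, DMSO libraries held 6093 and 6761 CPM, palbociclib libraries 6947 and 7490, and GSK3326595 libraries 6661 and 7864. The lower GSK3326595 library thus lay below the higher DMSO library, while both palbociclib libraries lay above both DMSO libraries. As means these are 6427 ± 472 CPM for DMSO, 7218 ± 384 for palbociclib and 7263 ± 851 for GSK3326595 (SD, n = 2), ratios of 1.12 and 1.13. Complex IV summed to 885.5 and 1005 CPM in DMSO, 1118 and 1263 with palbociclib and 1011 and 1266 with GSK3326595, ratios of 1.26 and 1.2. Complex I had ratios of 1.14 and 1.14, complex II 1.05 and 1.09, complex III 1.1 and 1.08, and complex V 1.08 and 1.12 (palbociclib first). Sums are dominated by abundant genes: ATP5F1B, the catalytic β subunit of ATP synthase, alone gave 900 to 1146 CPM.

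With palbociclib, 22 of the 81 members tested rose and 1 fell by edgeR's test, and the median log2 fold change was 0.21 (all genes tested: -0.02). Over all genes, 19.3% rose and 20.2% fell, so the members' share of rises (27.2%) was somewhat above that background and their share of falls (1.23%) far below it. Both treated libraries lay above both DMSO libraries in 47 members (35.1% of all genes did so). With GSK3326595, 10 members rose and 1 fell, with a median of 0.20 (all genes: -0.00). The background there was 8.58% rising and 10.2% falling, against 12.3% and 1.23% of members. Both treated libraries lay above both DMSO libraries in 35 members (27.6% of all genes). The log2 fold change was positive in 64 members with palbociclib and 71 with GSK3326595 (in 7950 and 8171 of all 16381 genes tested). In the fit without a block NDUFB7 and COX6A1 rose in each comparison. The comparisons share their controls. With the replicate number as a block, further members passed as higher in each, such as NDUFA2 (edgeR adjusted p = 1.8e-07 and 0.000383) and COX4I1 (5.81e-07 and 1.89e-05).

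**Figure D1:**
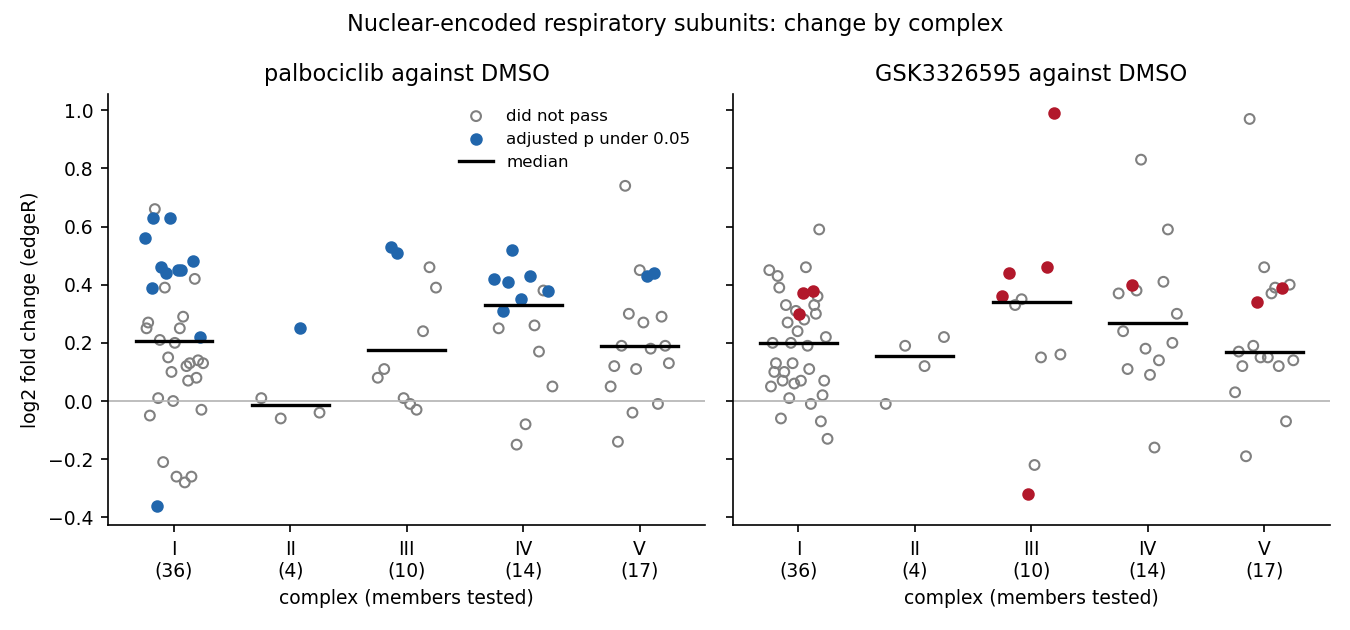
Log2 fold change of each of the 81 members tested, by complex (x axis, number tested in brackets), for palbociclib against DMSO (left) and GSK3326595 against DMSO (right). Filled points passed edgeR's test at an adjusted p under 0.05, open points did not, and bars are medians; most points lie above 0, and the highest palbociclib median is that of complex IV (0.33).

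Most members were higher in replicate 2 than in replicate 1 of every group. Replicate 2 was higher than replicate 1 in 73 of 81 members in DMSO, 67 in palbociclib and 76 in GSK3326595 (over all genes 49.1%, 49.3% and 50.2%), by medians of 0.17, 0.11 and 0.28 on the log2 scale. These shifts are of the size of the inhibitor differences: relative to each member's DMSO mean, the median member stood at -0.084 and 0.084 in the DMSO libraries, 0.144 and 0.256 with palbociclib and 0.090 and 0.357 with GSK3326595. DMSO replicate 2 and GSK3326595 replicate 1 were therefore almost level. Compared within a number, palbociclib exceeded DMSO in 69 members among replicates 1 (median 0.24) and 65 among replicates 2 (median 0.19), and in 60 in both. GSK3326595 exceeded DMSO in 66 (median 0.16) and 73 (median 0.27), and in 63 in both. All genes gave medians between -0.02 and 0.00 in these 4 contrasts. Over all genes, palbociclib exceeded DMSO in 48.1% among replicates 1, 49.7% among replicates 2 and 40.5% in both. For GSK3326595 these shares were 48.7%, 50.1% and 38%.

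**Figure D2:**
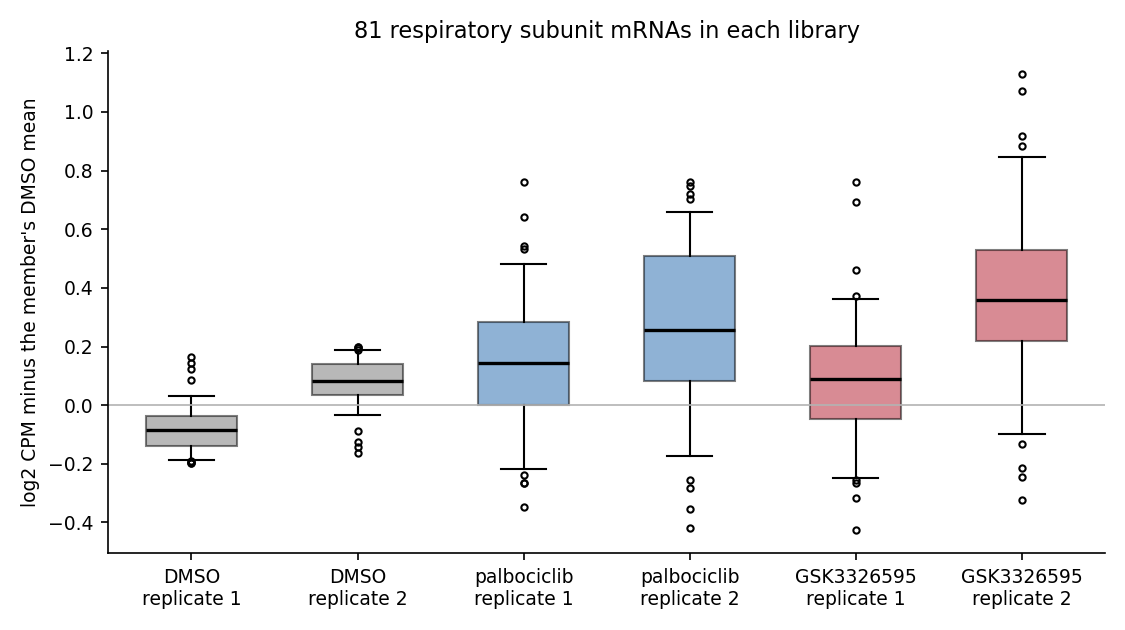
Log2 CPM of the 81 tested members in each library, relative to each member's DMSO mean (y axis). Boxes span the quartiles with the median as a line, whiskers the 5th to 95th percentile, and circles are members beyond them; within each group replicate 2 sits above replicate 1, and GSK3326595 replicate 1 (median 0.090) is level with DMSO replicate 2 (median 0.084).

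With the replicate number as a block in edgeR, 39 members rose and 5 fell with palbociclib (all genes 26.0% and 27.2%), and 39 rose and 3 fell with GSK3326595 (17.3% and 18.0%). All 23 palbociclib and all 11 GSK3326595 calls were kept in that fit. It assumes that same-numbered libraries belong together, which the labels do not state. Single libraries decided many calls. Without DMSO replicate 1, 5 of the 23 palbociclib calls were kept (NDUFA2, NDUFA13, NDUFB7, UQCRB and NDUFA5), and without palbociclib replicate 2 only NDUFA2 and NDUFA13 were. Of the 11 GSK3326595 calls, 0 were kept without DMSO replicate 1, 0 without GSK3326595 replicate 2 and 4 without DMSO replicate 2 (ATP5PB, CYC1, UQCRH and UQCR10). Leaving out GSK3326595 replicate 1 moved the members' median log2 fold change with GSK3326595 to 0.34, from 0.20 with all 6 libraries. The part of whatever separates the replicate numbers in the inhibitor differences was not tested beyond these fits.

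**Figure D3:**
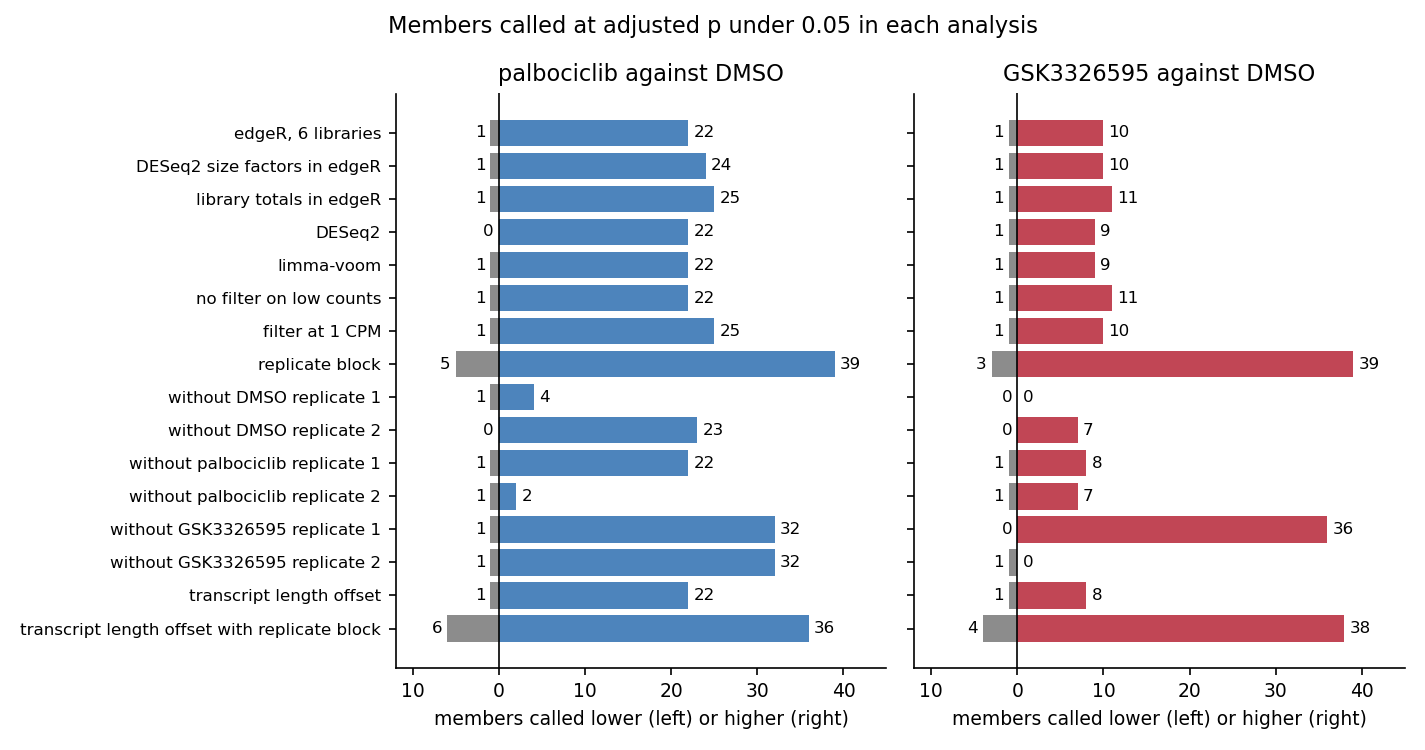
Number of members called lower (left of 0) or higher (right of 0) in each analysis, for palbociclib (left panel) and GSK3326595 (right panel) against DMSO. Shares over all genes were computed only for edgeR on all 6 libraries, without and with the replicate block. Counts stay between 22 and 25 higher for palbociclib and 8 and 11 for GSK3326595 under other scalings, filters, tests or a length correction without the block, rise to 36 or more with the block, and fall to 4 or fewer without DMSO replicate 1.

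Member transcripts are short, with a median of 844 bases (305 to 13566) against 2670 for all genes with a length. The shortest quartile of all genes (53 to 1656 bases), which holds 62 members, had median log2 fold changes of 0.00 with palbociclib and 0.03 with GSK3326595, whereas its 62 members had medians of 0.26 and 0.22. Replicate 2 exceeded replicate 1 by medians of 0.02 to 0.04 in that quartile of all genes. With a transcript length offset, 22 members rose and 1 fell with palbociclib, and 8 rose and 1 fell with GSK3326595. Shares over all genes were not computed for that fit.

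Complex I, the NADH dehydrogenase, had 10 rises and 1 fall with palbociclib among 36 members tested (27.8% and 2.78%, all genes 19.3% and 20.2%, median 0.21). With GSK3326595 it had 3 rises and 0 falls (8.33% and 0%, all genes 8.58% and 10.2%, median 0.20). With the block these counts were 17 and 5 (all genes 26.0% and 27.2%), and 16 and 0 (all genes 17.3% and 18.0%). NDUFA2, an accessory subunit of the NADH-binding arm, measured 18.6 and 23.8 CPM in DMSO, 30.5 and 35.4 with palbociclib and 25.3 and 32.1 with GSK3326595. Its palbociclib and DMSO libraries did not overlap, and it rose 1.55-fold (log2 0.63 ± 0.148 SE; adjusted p = 0.00508, edgeR). NDUFA13, also known as GRIM-19 and an accessory subunit, stood at 138.5 and 139.3 CPM in DMSO, 181.6 and 183.1 with palbociclib and 137.3 and 165.9 with GSK3326595. It rose 1.31-fold with palbociclib (log2 0.39 ± 0.0953; edgeR adjusted p = 0.00637), while the GSK3326595 libraries lay on either side of the DMSO ones. NDUFA2 and NDUFA13 were also the only 2 palbociclib calls kept in every alternative analysis run.

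NDUFB2, an accessory subunit of the membrane arm, measured 33.6 and 40.8 CPM in DMSO, 53.9 and 61.0 with palbociclib and 31.6 and 45.8 with GSK3326595. It rose 1.54-fold with palbociclib (edgeR adjusted p = 0.00693), and its GSK3326595 libraries spanned the DMSO ones. NDUFB7, another membrane arm subunit, was at 59.1 and 58.3 CPM in DMSO, 77.9 and 82.2 with palbociclib and 66.2 and 85.6 with GSK3326595. All 4 inhibitor libraries exceeded both DMSO libraries, with log2 fold changes of 0.45 ± 0.112 and 0.37 ± 0.112 SE and edgeR adjusted p of 0.00738 and 0.0381. The GSK3326595 call of NDUFB7 was lost when any of 5 libraries was left out, all but GSK3326595 replicate 1. The remaining accessory rises with palbociclib, NDUFA1, NDUFA8, NDUFB9, NDUFB10 and NDUFS5, lay between 0.44 and 0.56 on the log2 scale and are named to complete the count. NDUFA2 overlaps TMCO6 on the genome and NDUFB2 an antisense RNA, NDUFB2-AS1; without a stated strand setting such reads cannot be told apart.

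NDUFA5 was the 1 member that fell with palbociclib. This accessory subunit measured 34.5 and 43.9 CPM in DMSO, 30.6 and 30.5 with palbociclib and 36.1 and 39.2 with GSK3326595. It fell by 0.36 ± 0.121 SE on the log2 scale (edgeR adjusted p = 0.0317), and did not pass in DESeq2 or without DMSO replicate 2 or either palbociclib library. With the block, NDUFA9, NDUFB6, NDUFC2 and NDUFS4 also passed as lower with palbociclib (log2 -0.21, -0.26, -0.28 and -0.26).

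The 7 nuclear-encoded catalytic core subunits of complex I had lower medians than the 29 accessory ones, in a split made after the values were seen and not tested: 0.12 against 0.25 with palbociclib and 0.07 against 0.20 with GSK3326595. With palbociclib, 1 of 7 core and 9 of 29 accessory members rose (14.3% and 31%, all genes 19.3%). The core call was NDUFV1, the subunit that binds NADH and FMN (119 and 120 CPM in DMSO, 139 and 139 with palbociclib, 130 and 120 with GSK3326595; log2 0.22 ± 0.08 SE; edgeR adjusted p = 0.0484). It was lost under 5 other settings, DESeq2 and limma-voom among them, and without any DMSO or palbociclib library. NDUFS1, an iron-sulphur subunit, gave log2 fold changes of 0.12 ± 0.0898 and -0.01 ± 0.0902 SE and passed in neither comparison. NDUFB5, an accessory subunit, rose with GSK3326595 (log2 0.30 ± 0.0923; edgeR adjusted p = 0.0415), lost when any 1 library was left out.

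**Figure D4:**
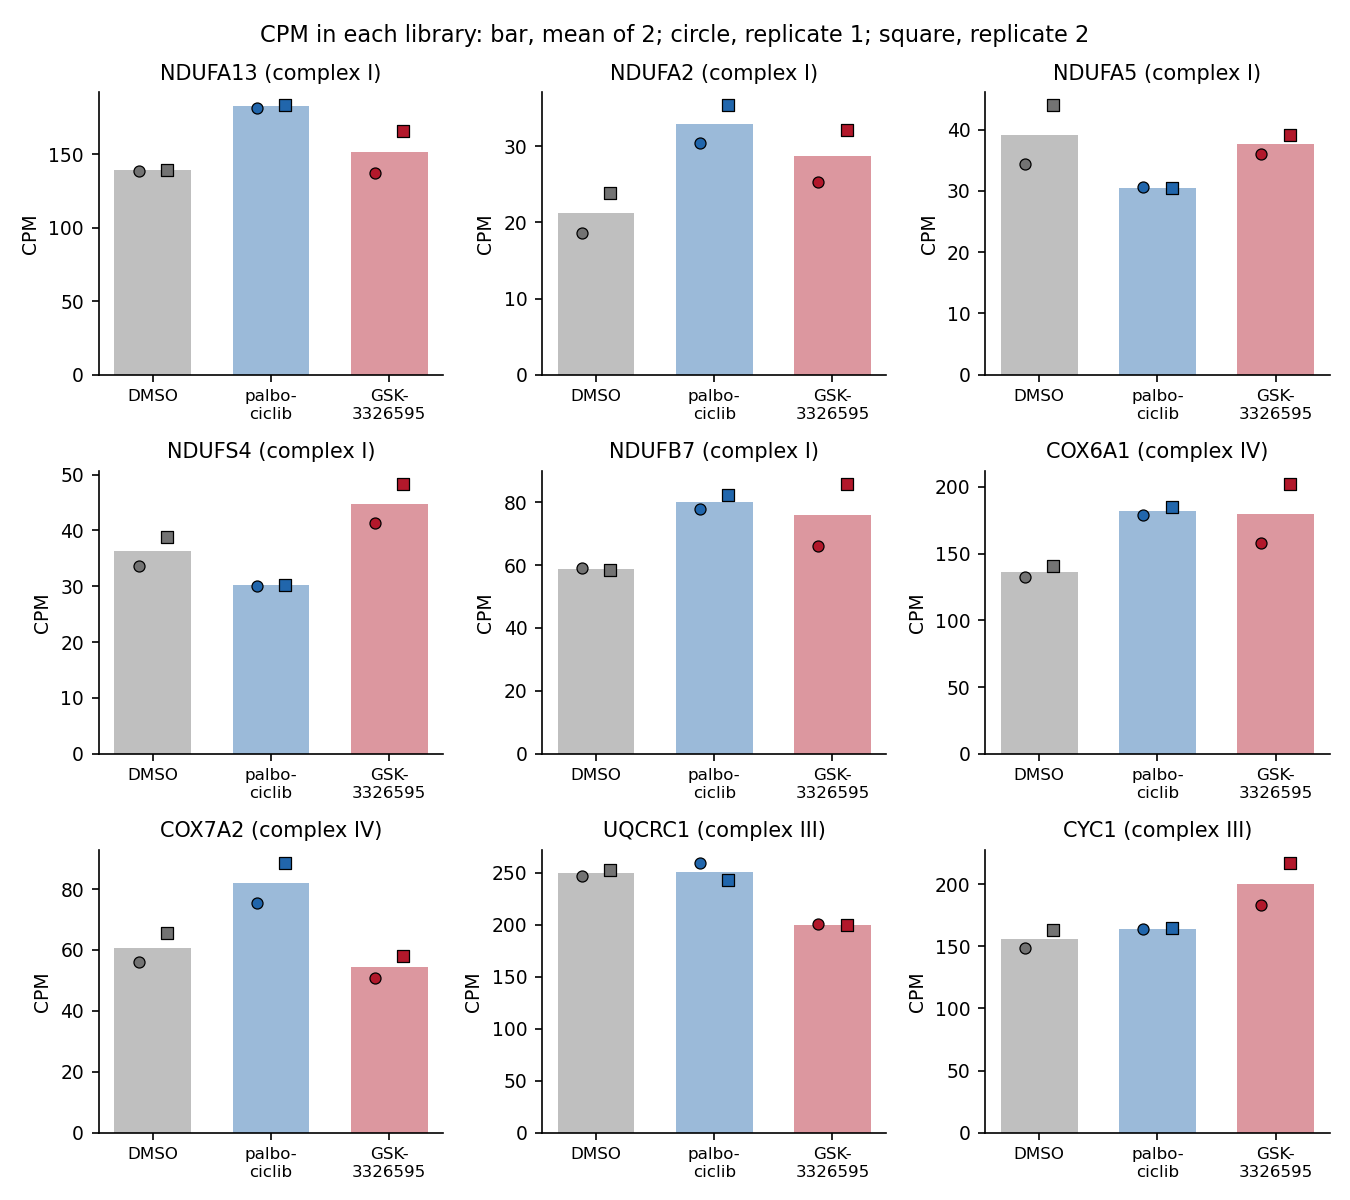
CPM (y axis, from 0) of 9 members in each library, with bars for the mean of the 2 libraries of a group, circles for replicate 1 and squares for replicate 2. NDUFB7 and COX6A1 lie above DMSO in all 4 inhibitor libraries, COX7A2 and NDUFS4 differ between the inhibitors, and UQCRC1 is lower in both GSK3326595 libraries (200 and 199 CPM) while CYC1 is higher (183 and 217 CPM).

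Complex II, succinate dehydrogenase, had 1 call against DMSO, SDHC with palbociclib (25% of 4 members, 19.3% of all genes). Its 4 members had medians of -0.02 with palbociclib and 0.15 with GSK3326595. SDHA, the flavoprotein, stayed at 119 and 126 CPM in DMSO, 120 and 127 with palbociclib and 115 and 127 with GSK3326595. SDHB, the iron-sulphur subunit, gave log2 fold changes of -0.06 ± 0.114 and 0.19 ± 0.114 SE, and SDHD, a membrane anchor, -0.04 ± 0.0874 and 0.22 ± 0.0874. SDHC, the other anchor, measured 147 and 151 CPM in DMSO, 179 and 175 with palbociclib and 151 and 173 with GSK3326595. It rose 1.19-fold with palbociclib (edgeR adjusted p = 0.0433), a call lost without any DMSO or palbociclib library, without the filter and with the length offset. SDHA shares near-identical sequence with 4 pseudogenes that are counted separately (28 to 227 counts per library), so its counts are uncertain to that extent. With the block, SDHB and SDHD also passed with GSK3326595 (edgeR adjusted p = 0.0279 and 0.0107). SDHD was lower with palbociclib than with GSK3326595 (log2 -0.26 ± 0.0873; edgeR adjusted p = 0.0356), a call lost without any 1 library but GSK3326595 replicate 1.

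Complex III, the cytochrome bc1 complex, split by subunit with GSK3326595: 4 of 10 members rose and 1 fell (40% and 10%, all genes 8.58% and 10.2%), and the median was 0.34. With palbociclib 2 rose (20%, all genes 19.3%, median 0.18). UQCRC1, the core 1 protein, measured 247 and 252 CPM in DMSO, 259 and 242 with palbociclib and 200 and 199 with GSK3326595. The GSK3326595 libraries lay below all 4 others, and UQCRC1 fell to 0.8 of its DMSO level (log2 -0.32 ± 0.083; edgeR adjusted p = 0.0191), but the call was lost without any 1 of the DMSO or GSK3326595 libraries. UQCRC2, its core 2 partner, was at 130 and 141 CPM in DMSO and 116 and 117 with GSK3326595, a log2 fold change of -0.22 ± 0.0815 that did not pass in the fit without the block (edgeR adjusted p = 0.0813) and did with it (0.00834). CYC1, the haem-bearing cytochrome c1, went the other way: 148.5 and 162.9 CPM in DMSO, 163.7 and 164.7 with palbociclib and 183.0 and 216.7 with GSK3326595. It rose 1.28-fold (log2 0.36 ± 0.0967; edgeR adjusted p = 0.0231). UQCRFS1, the Rieske iron-sulphur protein, gave -0.03 ± 0.103 and 0.15 ± 0.103 SE and passed in neither comparison.

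The 6 small subunits of complex III had medians of 0.43 with palbociclib and 0.39 with GSK3326595. UQCRH, the hinge protein next to cytochrome c1, measured 121 and 138 CPM in DMSO, 143 and 164 with palbociclib and 152 and 203 with GSK3326595, and rose 1.37-fold with GSK3326595 (edgeR adjusted p = 0.028). UQCR10 rose 1.35-fold with it (edgeR adjusted p = 0.0466), a call lost in DESeq2, in limma-voom and with the length offset. UQCRHL, an intronless copy of UQCRH, had the largest fold among the GSK3326595 calls, 1.99-fold from 2.06 and 1.72 CPM to 3.26 and 4.25 (edgeR adjusted p = 0.0244); reads of the pair may have been split between them, and DESeq2 did not call it. With palbociclib, UQCRB rose from 34.8 and 36.3 CPM to 48.3 and 53.3 (log2 0.51 ± 0.13; edgeR adjusted p = 0.00787). UQCR11 rose from 34.8 and 44.1 to 51.7 and 61.9 CPM (log2 0.53 ± 0.155; edgeR adjusted p = 0.0178). The palbociclib and DMSO libraries did not overlap for either gene, and UQCRB overlaps an antisense RNA, UQCRB-AS1.

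Complex IV, cytochrome c oxidase, had the highest share of palbociclib rises: 7 of 14 members tested (50%, all genes 19.3%), with a median of 0.33. With GSK3326595 1 of 14 rose (7.14%, all genes 8.58%), with a median of 0.27. With the block both counts were 9 (all genes 26.0% and 17.3%). COX6A1, the widely expressed isoform of subunit 6A, measured 132 and 141 CPM in DMSO, 179 and 185 with palbociclib and 158 and 202 with GSK3326595. All 4 inhibitor libraries lay above both DMSO libraries, and log2 fold changes were 0.41 ± 0.108 and 0.40 ± 0.109 SE (edgeR adjusted p = 0.00964 and 0.0248). COX6B1, the widely expressed 6B isoform facing the intermembrane space, was at 58.8 and 69.9 CPM in DMSO, 84.9 and 99.9 with palbociclib and 70.8 and 97.0 with GSK3326595. It rose 1.43-fold with palbociclib (edgeR adjusted p = 0.0109) and with GSK3326595 gave log2 0.38 ± 0.141 SE (edgeR adjusted p = 0.0796, and 5.28e-05 with the block). COX4I1, the regulatory subunit that can bind adenine nucleotides, was at 120 and 138 CPM in DMSO, 157 and 189 with palbociclib and 148 and 186 with GSK3326595. It rose with palbociclib (log2 0.42 ± 0.123; edgeR adjusted p = 0.0161), and its GSK3326595 value of 0.37 ± 0.123 had an edgeR adjusted p of 0.0529, or 1.89e-05 with the block.

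COX7A2, the widely expressed 7A isoform, was at 55.9 and 65.6 CPM in DMSO and rose to 75.5 and 88.4 with palbociclib (log2 0.43 ± 0.112; edgeR adjusted p = 0.00913). With GSK3326595 it stood at 50.7 and 58.0 CPM, overlapping DMSO (log2 -0.16 ± 0.114). COX5B, COX6C and COX7C complete the 7 rises, at log2 0.31, 0.35 and 0.38. COX7A2L, a relative of COX7A2 that takes part in supercomplex assembly, had log2 0.26 ± 0.103 and 0.14 ± 0.103 SE, and COX8A 0.05 ± 0.125 and 0.30 ± 0.125. None of these 4 values passed without the block; with it, COX7A2L passed with palbociclib and COX8A with GSK3326595 (edgeR adjusted p = 0.00373 and 0.00041).

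The 6 isoforms of complex IV known from other tissues or the germline were at 12.1 CPM or less, and 3 of them were tested. COX4I2, the hypoxia-linked isoform of COX4, had 0 counts in every library, which allows up to 0.144 to 0.175 CPM (3 counts, counting error only). COX6A2 and COX7A1 are the muscle forms; COX6A2 reached at most 0.102 CPM and COX7A1 1.86 to 2.91 CPM. COX8C and COX7B2 lie outside the rule for named genes and were added after their values were seen. COX8C had 1 count in all, in palbociclib replicate 2. COX7B2, the most abundant of the 6, measured 6.53 and 6.51 CPM in DMSO, 9.14 and 7.88 with palbociclib and 7.52 and 12.1 with GSK3326595. It did not pass without the block (log2 0.38 ± 0.217 and 0.59 ± 0.218 SE), and with it passed with GSK3326595 (edgeR adjusted p = 0.00679). COX6B2, a testis form, measured 1.34 and 1.67 CPM in DMSO, 1.27 and 1.44 with palbociclib and 2.1 and 3.26 with GSK3326595. It passed against DMSO in neither comparison without the block, and with it passed with GSK3326595 (edgeR adjusted p = 0.0297). Compared directly without the block, COX6B2 was lower with palbociclib than with GSK3326595 (log2 -0.98 ± 0.325 SE, edgeR adjusted p = 0.0348). That call was lost in DESeq2 and without either palbociclib library or GSK3326595 replicate 2, and COX6B2 had only 24 to 56 counts per library. Per kilobase of transcript, COX6A1 was at 239 CPM in DMSO and COX6B1 at 136, against 12.0 for COX7B2, 2.95 for COX7A1 and 0.903 for COX6B2. NDUFA4, today named COXFA4 and counted with complex IV though its symbol falls outside the rule, gave 65.1 and 78.6 CPM in DMSO, 71.3 and 79.0 with palbociclib and 75.0 and 90.2 with GSK3326595 (log2 0.07 ± 0.115 and 0.20 ± 0.115 SE). Its relative NDUFA4L2 was at 1.63 to 3.32 CPM and passed in neither comparison.

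Complex V, the ATP synthase, had 2 rises with each inhibitor among 17 members tested (11.8% each), with medians of 0.19 and 0.17. Over all genes 19.3% rose with palbociclib and 8.58% with GSK3326595. With the block, complex V had 8 and 6 rises (all genes 26.0% and 17.3%). The α and β subunits of the catalytic head passed in neither comparison: ATP5F1A gave log2 0.05 ± 0.0966 and 0.03 ± 0.0967 SE, and ATP5F1B 0.12 ± 0.114 and 0.17 ± 0.114. The palbociclib rises were the small membrane subunits ATP5MK, from 98.5 and 130 to 144 and 167 CPM (log2 0.44 ± 0.146; edgeR adjusted p = 0.0295), and ATP5MG, from 24.3 and 32.0 to 34.7 and 41.2 CPM (log2 0.43 ± 0.146; edgeR adjusted p = 0.0334). Those of GSK3326595 were ATP5PB, the stator b subunit, and ATP5MC2, one of 3 genes that encode the same c-ring protein. ATP5PB measured 152 and 178 CPM in DMSO, 163 and 165 with palbociclib and 202 and 230 with GSK3326595 (log2 0.39 ± 0.1; edgeR adjusted p = 0.0191). ATP5MC2 was at 154 and 147 CPM in DMSO, 141 and 150 with palbociclib and 176 and 204 with GSK3326595 (log2 0.34 ± 0.0915; edgeR adjusted p = 0.0243). The other c-ring genes, ATP5MC1 and ATP5MC3, gave 0.30 ± 0.122 and 0.11 ± 0.131 with palbociclib and 0.19 ± 0.122 and 0.15 ± 0.132 with GSK3326595. None of these 4 values passed without the block; with it, ATP5MC1 passed with palbociclib (edgeR adjusted p = 0.000583). ATP5F1E, the ε subunit, had only 5 to 12 counts per library and overlaps the readthrough gene SLMO2-ATP5E.

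Compared directly in the fit without the block, members differed between the inhibitors less often than genes in general. By edgeR's test 5 members (6.17%) were higher and 10 (12.3%) lower with palbociclib than with GSK3326595, against 16.6% and 18.2% of all genes. The median was 0.02 (all genes -0.03). With the block 16 members were higher and 21 lower (all genes 22.8% and 25.5%). COX7A2 was 1.51-fold higher with palbociclib (log2 0.59 ± 0.113; edgeR adjusted p = 0.0018). ATP5F1D, the δ subunit of the central stalk, measured 73.8 and 76.1 CPM with palbociclib and 55.2 and 59.8 with GSK3326595 (log2 0.38 ± 0.0898, edgeR adjusted p = 0.0061). UQCRC1 (log2 0.33 ± 0.0829) and NDUFB2 (0.57 ± 0.155) were the next 2 by p-value among those higher with palbociclib.

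NDUFS4, an accessory subunit whose loss causes complex I deficiency, was at 33.7 and 38.9 CPM in DMSO, 30.1 and 30.3 with palbociclib and 41.3 and 48.2 with GSK3326595. The 3 groups did not overlap: palbociclib lay below and GSK3326595 above DMSO, differences that passed only with the block (edgeR adjusted p = 0.0829 and 0.0827 without it, 0.0113 and 0.00525 with it), and the inhibitors differed by -0.57 ± 0.113 on the log2 scale (edgeR adjusted p = 0.00235). NDUFA9, which sits near the ubiquinone site, had the same order, 63.8 and 73.6 CPM in DMSO, 58.1 and 60.6 with palbociclib and 75.9 and 89.3 with GSK3326595 (log2 -0.48 ± 0.104; edgeR adjusted p = 0.0039). ATP5MC2 (-0.38 ± 0.0914) and ATP5PB (-0.40 ± 0.0999) followed among those lower with palbociclib. NDUFA9, NDUFS4 and COX7A2 were the 3 of 15 calls kept in every alternative run, and the other 12 were each lost without at least 1 library.

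The same fit gave the genes around the complexes. For comparison with each list below, 19.3% of all genes rose and 20.2% fell with palbociclib, and 8.58% and 10.2% with GSK3326595. Of 47 assembly factors tested, 7 rose and 6 fell with palbociclib (14.9% and 12.8%, median 0.00). With GSK3326595, 11 rose and 5 fell (23.4% and 10.6%, median 0.18). TIMMDC1 and SDHAF2, assembly factors of complexes I and II, rose with palbociclib (log2 0.38 ± 0.0784 and 0.44 ± 0.0906), while ECSIT and ACAD9, of complex I, fell (-0.48 ± 0.0898 and -0.41 ± 0.101). With GSK3326595, SCO1 and NDUFAF1 rose (0.48 ± 0.0959 and 0.46 ± 0.102) and NDUFAF3 and FOXRED1 fell (-0.59 ± 0.0956 and -0.51 ± 0.105). Of 21 electron carriers, coenzyme Q enzymes and adenine nucleotide or phosphate carriers, 6 rose and 3 fell with palbociclib (28.6% and 14.3%). COQ9 and SLC25A4 led the rises (0.48 ± 0.0925 and 0.45 ± 0.0971) and COQ2 and COQ7 the falls (-0.79 ± 0.12 and -0.54 ± 0.136). With GSK3326595, 3 of these 21 rose and 1 fell (14.3% and 4.76%). COQ8A and SLC25A4 led these rises (0.42 ± 0.0897 and 0.43 ± 0.0976), and PDSS1 fell (-0.44 ± 0.122).

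Tricarboxylic acid cycle and pyruvate dehydrogenase genes had 4 rises and 3 falls of 21 with palbociclib (19% and 14.3%, median -0.09). With GSK3326595 they had 2 rises and 1 fall (9.52% and 4.76%, median 0.06). With palbociclib, PDK2 rose (0.48 ± 0.111), while fumarase, FH, fell from 182 to 123 CPM (-0.57 ± 0.0979) and DLAT fell (-0.42 ± 0.0929). With GSK3326595, MDH2 and IDH3B rose (0.46 ± 0.101 and 0.35 ± 0.0829) and PDK3 fell (-0.37 ± 0.115). Of 24 genes for outer membrane channels, protein import and cristae, MICOS13 rose (0.34 ± 0.106) and DNM1L fell (-0.36 ± 0.0822) with palbociclib (4.17% each, median -0.10). With GSK3326595, 3 of them rose and 0 fell (12.5% and 0%, median 0.20), led by TIMM17A and TOMM22 (0.45 ± 0.111 and 0.39 ± 0.121). With the block, 15 rose and 0 fell with GSK3326595 (all genes 17.3% and 18.0%), and 1 rose and 10 fell with palbociclib (all genes 26.0% and 27.2%). Compared directly without the block, 0 were higher and 11 lower with palbociclib than with GSK3326595 (0% and 45.8%, all genes 16.6% and 18.2%). The 13 mitochondrially encoded mRNAs, the partner subunits of complexes I, III, IV and V, are listed at 0 in every library and could not be compared.

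Among 17 nuclear regulators of respiratory genes tested, 2 rose and 8 fell with palbociclib (11.8% and 47.1%, median -0.27). With GSK3326595, 3 rose and 4 fell (17.6% and 23.5%, median -0.10). PPARGC1A measured 5.47 and 4.89 CPM in DMSO, 11.1 and 11.3 with palbociclib and 7.99 and 8.62 with GSK3326595, with no overlap of groups. It rose by 1.11 ± 0.163 on the log2 scale with palbociclib and 0.68 ± 0.169 with GSK3326595 (edgeR adjusted p = 0.000228 and 0.0158). ESRRA, the nuclear receptor ERRα through which PGC-1α acts, rose in both comparisons (0.47 ± 0.0924 and 0.37 ± 0.0929; edgeR adjusted p = 0.00173 and 0.0162). NRF1 measured 23.1 and 27.0 CPM in DMSO, 12.3 and 11.6 with palbociclib and 19.1 and 16.9 with GSK3326595, and fell in both comparisons (-1.07 ± 0.128 and -0.48 ± 0.125; edgeR adjusted p = 5.09e-05 and 0.0211). GABPB1, the partner subunit of GABPA, fell with palbociclib (-0.83 ± 0.109; edgeR adjusted p = 9.97e-05), whereas GABPA itself gave -0.16 ± 0.0945 and did not pass. SP1 and YY1, added here after their values were seen because their motifs were searched, fell with palbociclib by 0.58 and 0.39 on the log2 scale, and with GSK3326595 by 0.32 and 0.33 (edgeR adjusted p = 0.0227 and 0.0307). With GSK3326595, TFB2M also rose (0.37 ± 0.0899) and GABPB2 fell (-0.76 ± 0.19). Among the genes named in these 5 lists, palbociclib calls kept whichever library was left out included TIMMDC1, SDHAF2, ECSIT, COQ9, SLC25A4, COQ2, PDK2, FH, PPARGC1A, ESRRA, NRF1, GABPB1 and SP1, and the GSK3326595 calls so kept were NDUFAF3 and FOXRED1. The other calls named for them were lost without at least 1 library, those of PPARGC1A and NRF1 with GSK3326595 without DMSO replicate 2 or GSK3326595 replicate 2. Those of ESRRA and SP1 with GSK3326595 were lost without either DMSO library or GSK3326595 replicate 2, and that of YY1 without DMSO replicate 2, either palbociclib library or GSK3326595 replicate 1. No link between these regulators and the subunits was tested.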

How the data were processed

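Total RNA of A375 cells (3 groups of 2 libraries) was depleted of ribosomal RNA and made into TruSeq v2 libraries, per the labels' protocols. The authors deposited raw read counts per NCBI Gene ID. The submitters' processing notes name the build hg38, the aligner HISAT2, the counter featureCounts 1.6.2, CASAVA 1.8.2, cutadapt 1.7 and limma. Annotation, strand setting and treatment of reads with several alignments are not stated in the sources used, so 27 members that overlap another counted gene, and members with near-identical copies, are uncertain.

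RefSeq symbols (GRCh38.p14) matched 27745 of 28395 IDs; unmatched IDs held 0.233% to 0.508% of counts. Counts were tested in edgeR 4.0.16 (R 4.3.3): filterByExpr with a minimum count of 10, TMM, 1 coefficient per group on all 6 libraries with 3 residual degrees of freedom, two-sided quasi-likelihood tests, Benjamini-Hochberg over 16381 genes. SE is approximate, from |log2 fold change|/√F. CPM are from TMM library sizes. Transcript length is that of GENCODE v29 principal transcripts. The script was tested on simulated counts for palbociclib against DMSO with 16108 genes. There it called 49% of genes changed 1.5-fold, 87% of those changed 2-fold and 9 genes left unchanged. Many differences here are smaller. The simulation gave all genes the same spread and no shift between replicate numbers, so these rates need not hold for the members.

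Same-numbered libraries deviated together from their group means (r across genes 0.179 for DMSO and palbociclib, 0.341 for DMSO and GSK3326595, 0.14 for the inhibitors). With 2 libraries per group, other numbering would change only the sign of r. These values therefore cannot show that same-numbered libraries belong together, and the labels do not say what a number marks. The block assumes such pairing and was run as an alternative. Alternatives were DESeq2 1.42.0, limma-voom (limma 3.58.1), DESeq2 size factors or library totals in edgeR, no filter or at least 1 CPM in 2 libraries, the replicate block, each library left out, and length offsets (added after seeing the data). Members and lists were chosen with earlier results of these data known. Named genes are, per complex and inhibitor, up to 3 rises and 3 falls with the smallest p, a fixed set of core subunits and isoforms, the 4 leading calls in each direction between inhibitors, and 2 rises and 2 falls per further list. Some results are not reported here.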

Additional observations from a re-analysis of the deposited data

How the results depend on the processing

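Under DESeq2 size factors, library totals, limma-voom, no filter, a filter at 1 CPM and the transcript length offset, all counts of members called higher or lower in the 3 comparisons stayed within 1.5 times those given. DESeq2 called 0 members lower with palbociclib and 5 lower with palbociclib than with GSK3326595. The replicate block gave 39 higher and 5 lower with palbociclib, 39 and 3 with GSK3326595, and 16 and 21 between the inhibitors; with the length offset added, which was chosen after seeing the data, these were 36 and 6, 38 and 4, and 17 and 20. The block ended no call of a member.

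Leaving out 1 library gave 2 to 32 members higher and 0 to 1 lower with palbociclib (median log2 fold change 0.13 to 0.30), 0 to 36 higher and 0 to 1 lower with GSK3326595 (0.07 to 0.34), and 2 to 15 higher and 3 to 18 lower between the inhibitors (-0.10 to 0.17). The lowest palbociclib count came without palbociclib replicate 2, and the GSK3326595 count was 0 without DMSO replicate 1 or GSK3326595 replicate 2. An arm with 1 library left is assumed to vary like the other groups. Shares over all genes were not computed for these fits, so their counts of members cannot be set against a background. No called value changed sign; signs that changed where neither analysis called the member were not counted. Summed CPM of complex II with palbociclib was 1.06 times DMSO with DESeq2 size factors. For single named members, 1558 values kept their side of the threshold, 109 lost and 88 gained a call. The cause of these changes was not tested. Members under about 10 counts are limited by these low counts. For ATP5F1E, how reads were divided between it and the overlapping readthrough gene SLMO2-ATP5E was not tested.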
